A study of Mus musculus with 4 samples.

Results

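The iron handling genes of the small intestine were described in young and old intestinal stem cells (ISCs). They are the 10 genes Fth1, Ftl1, Tfrc, Slc40a1, Slc11a2, Heph, Cybrd1, Ireb2, Ncoa4 and Steap3, chosen by symbol from the 52459 genes listed, and all 10 were among the 13692 genes tested. ISCs were sorted from the small intestine of wild-type C57/Bl6 mice by a panel of surface proteins, without a reporter transgene, a gate that kept EPCAM+, CD44high, EPHB2high, CD166+, CD24med and GRP78low cells and removed endothelial (CD31) and blood (CD45) cells. The ISC_2mth group held 2 libraries from mice of 2 months and the ISC_22mth group 2 libraries from mice of 22 months, and 5 animals were pooled for each library. A pool hides the differences between its animals, the tests below measure only the spread between pools, and in bulk RNA fewer cells of a type and less RNA per cell cannot be told apart.

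Iron enters the enterocyte from the gut lumen after reduction, for which Cybrd1 is a known reductase, through the divalent metal transporter encoded by Slc11a2. It leaves towards the blood through ferroportin, encoded by Slc40a1, with the copper ferroxidase hephaestin (Heph). Dividing crypt cells take up iron from transferrin in the blood through the transferrin receptor (Tfrc), after which the endosomal reductase Steap3 acts on it. Surplus iron is stored in ferritin, a shell of heavy (Fth1) and light (Ftl1) chains, and is released when Ncoa4 carries ferritin to the lysosome. Iron regulatory proteins, among them that encoded by Ireb2, bind hairpins called iron responsive elements (IREs). Binding in the 5′ UTR blocks translation and binding in the 3′ UTR protects the mRNA, so that a 3′ element acts on the RNA level that sequencing reads and a 5′ element mainly on protein, which was not measured here.

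These elements divide the 10 genes into groups, so they are shown before the values. Transcripts of the GENCODE vM21 annotation (GRCm38) were searched on the sense strand for a C, then 5 bases, then the loop CAGTGN, then 5 bases pairing with the first 5, with G-T pairs allowed. Of the 10 genes, 4 held this pattern, against 1.34% of the 21877 protein-coding genes. The pattern was written after known IREs and the genes were chosen for iron handling, so this is a description and not a test. The loop is printed in capitals, 5′ to 3′.
Fth1, 5′ UTR, chr19:9982733-9982759, plus strand: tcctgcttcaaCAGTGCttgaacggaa
Ftl1, 5′ UTR, chr7:45459780-45459806, minus strand: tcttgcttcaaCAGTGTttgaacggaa
Slc40a1, 5′ UTR, chr1:45925466-45925492, minus strand: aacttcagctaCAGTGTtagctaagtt
Tfrc, 3′ UTR, chr16:32631220-32631246, plus strand: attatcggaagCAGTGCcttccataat
Tfrc, 3′ UTR, chr16:32631599-32631625, plus strand: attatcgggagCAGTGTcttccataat
Tfrc, 3′ UTR, chr16:32631664-32631690, plus strand: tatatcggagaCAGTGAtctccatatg
Tfrc, 3′ UTR, chr16:32631711-32631737, plus strand: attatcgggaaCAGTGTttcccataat
Slc11a2, 3′ UTR, chr15:100395153-100395180, minus strand: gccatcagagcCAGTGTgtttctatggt
The last sequence, in Slc11a2, was found when 1 unpaired base was allowed in the 3′ arm, a search added after the first, and 4.03% of protein-coding genes matched it. It lies in 1 annotated transcript of Slc11a2, whereas the counts sum all transcripts of a gene. The 5′ matches lie in Fth1, Ftl1 and Slc40a1, and the 3′ matches in Tfrc and Slc11a2. No match was found in Heph, Cybrd1, Ireb2, Ncoa4 or Steap3, which says only that these letters are not in their annotated transcripts. A match is a description of the sequence and not evidence of binding in these cells.

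Libraries held between 11662654 and 15975698 counts on genes. Mitochondrially encoded genes held 62.6% and 65.7% of them at 2 months, against 73.8% and 72.9% at 22 months. Counts were scaled by TMM, and normalised CPM, the counts on the common library scale that TMM gives, are called CPM below. All 11 stem cell markers, Lgr5 and Olfm4 among them, were tested and none had FDR under 0.05, while 3 of 12 enterocyte markers (Fabp1, Fabp2 and Sis) were higher in old ISCs at that threshold. The summed level of the enterocyte markers was 455 and 571 CPM at 2 months against 995 and 833 CPM at 22 months. For the 6 Paneth markers it was 924, 714, 2058 and 799 CPM, in the order ISC_2mth replicates 1 and 2 and ISC_22mth replicates 1 and 2, so that 1 old pool stood apart, and 2 of the 6 (Defa17 and Defa24) were called higher. Of the other epithelial markers tested, none of 6 goblet and 5 enteroendocrine markers was called, and 1 of 3 tuft markers was (Dclk1, higher). Dclk1 had 4 and 4 counts at 2 months against 42 and 19 at 22 months. It passed the filter on low counts through the old pools alone, which fixed its direction. Of 12 leukocyte and macrophage markers, 7 had no count in any pool, Adgre1 and C1qa among them, and the list summed to between 27 and 71 counts. Of 8 erythroid markers, 7 had no count, the haemoglobin genes included. The part of the enterocyte and Paneth markers in the results below was not tested.

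Whether iron handling differed with age was asked of the 10 genes within a comparison over all genes tested. None of the 10 had FDR under 0.05 by edgeR's quasi-likelihood test (Benjamini-Hochberg adjustment over 13692 genes), against 2.26% of all genes tested (1.63% higher and 0.628% lower in old ISCs). Their FDR lay between 0.193 and 0.964. None was called by edgeR's likelihood ratio test, limma voom with sample quality weights or DESeq2 either, which called 4.46%, 2.34% and 1.44% of all genes tested. Without ISC_22mth replicate 1, the pool with the high Paneth sum, none was called, and the lowest FDR was 0.0553 (Fth1, log2 fold change 0.36, by edgeR). At an unadjusted p under 0.05 there were 4, namely Slc40a1, Tfrc and Fth1 with higher and Ftl1 with lower values in old ISCs, a level that 16.9% of all genes tested reached (9.26% higher, 7.65% lower). The likelihood ratio test put 3 members and 18.1% of all genes tested there, limma voom 3 and 16.1%, and DESeq2 1 and 10.2%. These same 4 were the members whose pools did not overlap between ages, which was so for 47.6% of all genes tested (24% higher, 23.6% lower). Of the 10 genes, 6 lay above 0, against 49.5% of all genes tested. The median log2 fold change of the 10 genes was 0.033, and that of all genes tested was -0.0049. Scaling by total counts, mitochondrial counts included, shifted the median of all genes to -0.49 and called 33.8% of them, Ftl1, Slc11a2 and Ireb2 (lower) among them, so directions below are relative to the TMM scale. The 95% interval of the log2 fold change stayed within a 2-fold difference in either direction for 6 genes (Fth1, Tfrc, Slc11a2, Heph, Ireb2 and Steap3) and reached past it for Ftl1, Slc40a1, Cybrd1 and Ncoa4, the 4 genes with a mean under 5 CPM.

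**Figure D1:**
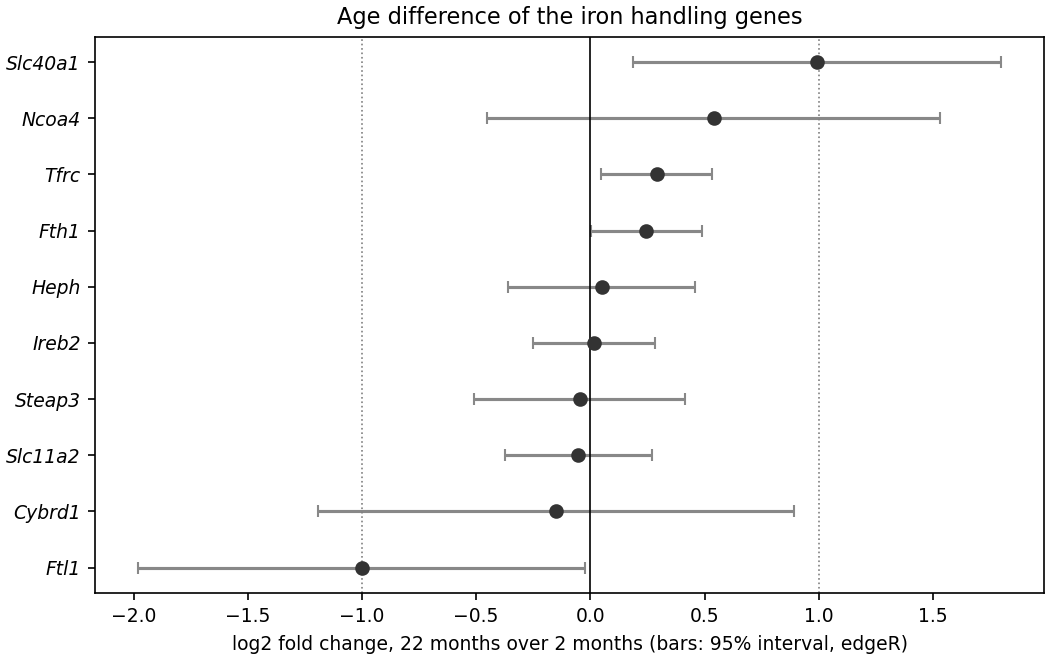
Log2 fold change of each iron handling gene, 22 months over 2 months, with its 95% interval from edgeR's quasi-likelihood fit (n = 2 pools per age); dotted lines mark a 2-fold difference. The narrow intervals of 6 genes sit near 0, with Fth1 at 0.25 and Tfrc at 0.29 (-0.25 and -0.21 when scaled by total counts), while Slc40a1 (0.99) and Ftl1 (-1.002) lie farthest out on wide intervals.

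Levels were compared between genes per kilobase of exon (normalised CPM per kilobase). The length was that of all exons annotated in any transcript of a gene, so the order also depends on which transcripts are annotated. The limits given below on shared sequence in Ftl1 and Ncoa4 hold for their places in it. Fth1 stood first with a mean over the 4 pools of 84.7, ranging from 74.7 to 99.6, and Tfrc followed at 34.9, from 29.3 to 39.8. Next came Ireb2 at 5.59 and Slc11a2 at 3.65, each with a range apart from its neighbours. Heph (2.17), Steap3 (1.73) and Ftl1 (1.55) were not separated, since the ranges of neighbours overlapped. The lowest were Slc40a1 (0.357), Cybrd1 (0.357) and Ncoa4 (0.218), whose ranges also overlapped. ISCs thus held Tfrc RNA, per kilobase of exon, well above that of Slc11a2, Cybrd1, Heph and Slc40a1 at both ages. Which route of iron these RNAs serve in ISCs was not measured.

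**Figure D2:**
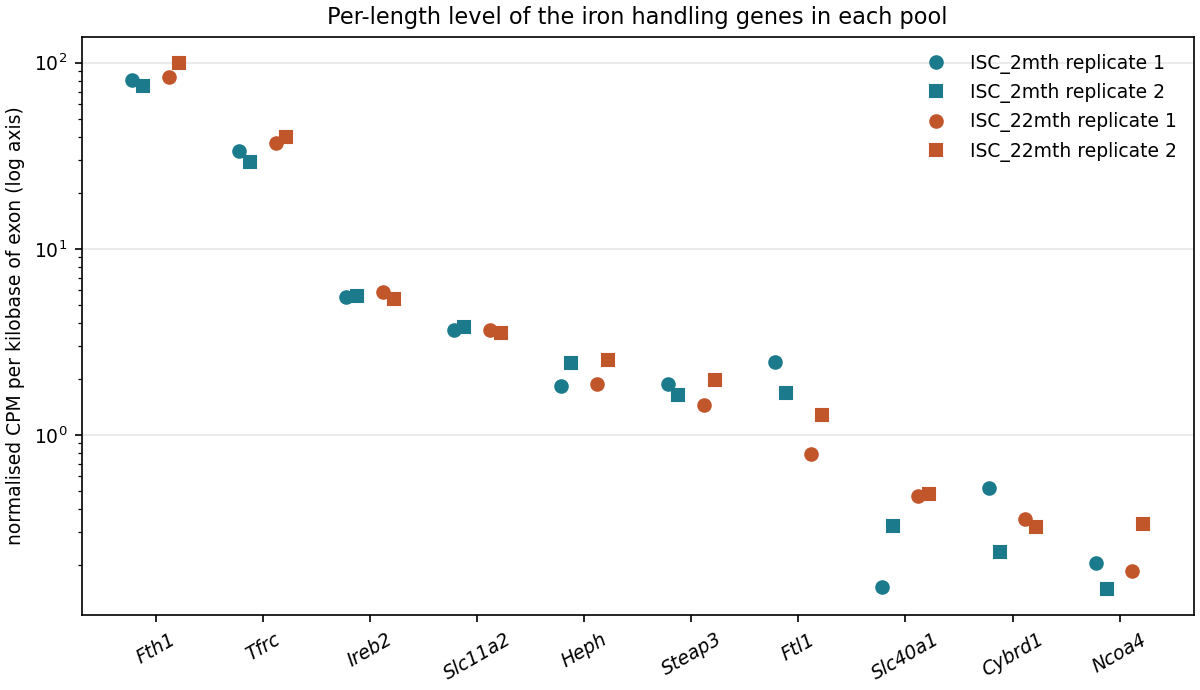
Normalised CPM per kilobase of exon (log axis) of the 10 genes in each of the 4 pools, in order of their mean; colours mark age and symbols the replicate number. Fth1 and Tfrc lie above 29 in each pool and the other genes below 6, and the pools of Slc40a1 and Ftl1 spread most.

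Storage was read from the ferritin chains. Fth1, whose heavy chain oxidises iron as it enters the shell, had 4046 and 3919 counts at 2 months against 3869 and 4225 at 22 months. After TMM normalisation these were 279 and 259 CPM against 292 and 345 CPM, so each old pool exceeded each young pool, by a margin smaller than the distance between the old pools. The means were 269 ± 13.7 and 319 ± 37.6 CPM (SD, n = 2 pools per age), a log2 fold change of 0.25 with a standard error of 0.12 (FDR = 0.290 by edgeR), whereas scaling by total counts gave -0.25. The 95% interval of the fold ran from 1.002 to 1.402. The log2 fold change was 0.12 without ISC_22mth replicate 2 and 0.36 without ISC_22mth replicate 1 (FDR = 0.671 and 0.0553 by edgeR). Fth1 lies on chromosome 19 from 9980598 to 9985098, and 1.59% of its 50-nt stretches also occur in transcripts of another gene, Gm6977, which had between 3 and 8 counts per pool. The pseudogene Fth-ps2 had between 19 and 25 counts.

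Ftl1, which encodes the light chain, was counted far less than its heavy partner. Its counts were 48 and 34 at 2 months against 14 and 21 at 22 months, or 3.31 and 2.25 against 1.06 and 1.72 CPM, and each old pool was below each young pool. The means were 2.78 ± 0.748 and 1.39 ± 0.466 CPM (SD, n = 2), a log2 fold change of -1.002 with a standard error of 0.47 (FDR = 0.285 by edgeR). These counts are uncertain. Of the 50-nt stretches in Ftl1 transcripts, the length to which the longer reads were cropped, 58.4% also occur in transcripts of 17 other genes, mostly ferritin pseudogenes such as Ftl1-ps1, and the sources used here do not give how reads with several matches were counted. Gm10252, on the opposite strand, overlaps 355 bp of its exons (26.5%), and reads there cannot be told apart unless strand was used. Ftl1-ps1 itself had 1 count in all pools together and Gm10252 had 5. Ftl1 lies on chromosome 7 from 45457944 to 45459884.

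Ncoa4, the receptor for the degradation of ferritin, had 28 and 21 counts at 2 months against 23 and 38 at 22 months. Its levels of 1.93 and 1.39 against 1.74 and 3.11 CPM overlapped between ages, and 1 old pool was the highest. The log2 fold change was 0.54 with a 95% interval from -0.45 to 1.53 (FDR = 0.604 by edgeR), which holds folds from 0.731 to 2.89. It was 0.070 without ISC_22mth replicate 2, the highest pool, 0.32 without ISC_2mth replicate 2 and 0.91 without ISC_22mth replicate 1, and 0.050 when scaled by total counts. Of its 50-nt stretches, 17.9% also occur in transcripts of Gm6768, which had between 0 and 2 counts per pool. Ncoa4 lies on chromosome 14 from 32159865 to 32179855.

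Uptake from transferrin was read from Tfrc and Steap3. Tfrc, the receptor, had 3004 and 2739 counts at 2 months against 3020 and 3012 at 22 months, or 207 and 181 against 228 and 246 CPM, and each old pool exceeded each young pool. The means were 194 ± 18.2 and 237 ± 12.8 CPM (SD, n = 2), a log2 fold change of 0.29 with a standard error of 0.12 (FDR = 0.206 by edgeR), whereas scaling by total counts gave -0.21. None of its 50-nt stretches occurs in transcripts of other genes, and it lies on chromosome 16 from 32608920 to 32632794. Steap3, the endosomal reductase, had 10.7 and 9.39 CPM at 2 months against 8.24 and 11.3 CPM at 22 months. The old pools enclosed both young pools, and the log2 fold change was -0.047 (95% interval -0.51 to 0.41, FDR = 0.940 by edgeR). Steap3 lies on chromosome 1 from 120190757 to 120272705.

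Slc11a2 and Cybrd1 are the genes named above for luminal uptake by the enterocyte, a role not measured in ISCs here. Slc11a2, the divalent metal transporter that carries its IRE in the 3′ UTR as Tfrc does, had 336 and 365 counts at 2 months against 307 and 274 at 22 months. Its levels were 23.1 and 24.1 against 23.2 and 22.4 CPM and overlapped. The log2 fold change was -0.052 (95% interval -0.37 to 0.27, FDR = 0.902 by edgeR), the interval holding folds from 0.772 to 1.20. Antisense Gm5475 overlaps 402 bp of its exons and had 3 counts in all pools together. Slc11a2 lies on chromosome 15 from 100387898 to 100425072. Cybrd1, the ferric reductase, had 40 and 19 counts at 2 months against 25 and 21 at 22 months. The young pools, at 2.76 and 1.26 CPM, enclosed both old pools, at 1.89 and 1.72 CPM, and the log2 fold change was -0.15 with a 95% interval from -1.19 to 0.89 (FDR = 0.915 by edgeR). Cybrd1 lies on chromosome 2 from 71117923 to 71142926.

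Export was read from Slc40a1 and Heph. Slc40a1, the iron exporter ferroportin, had 20 and 44 counts at 2 months against 56 and 53 at 22 months. Its levels were 1.38 and 2.91 against 4.23 and 4.33 CPM. Each old pool exceeded each young pool, and the young pools differed from each other about as much as the nearer young pool did from the old ones. The means were 2.14 ± 1.08 and 4.28 ± 0.0728 CPM (SD, n = 2), a log2 fold change of 0.99 (standard error 0.38), with the lowest FDR of the 10 genes, 0.193 by edgeR. Scaling by total counts, which shifted the median of all genes to -0.49, gave 0.52 for Slc40a1. Without ISC_2mth replicate 1 the log2 fold change was 0.56 and without ISC_2mth replicate 2 it was 1.63, so its size rests on which young pool is used. Heph, the ferroxidase partner of ferroportin, had 14.0 and 18.6 CPM at 2 months against 14.4 and 19.4 CPM at 22 months. In both ages 1 pool was near 14 and the other near 19 CPM, and the log2 fold change was 0.051 (95% interval -0.36 to 0.46, FDR = 0.926 by edgeR). Slc40a1 lies on chromosome 1 from 45908068 to 45926523, and Heph on chromosome X from 96455359 to 96574485. Macrophages also make ferroportin. Of the 12 leukocyte and macrophage markers, 7 had no count in any pool, Adgre1, C1qa, C1qb and Cd163 among them, while Cd68 had between 22 and 63 counts, Lyz2 between 3 and 9 and Csf1r between 1 and 4. The summed counts of the list were 71, 48, 44 and 27 in the order of the pools given above, and the enterocyte sums given above were higher in both old pools, as Slc40a1 was; the part of either in the Slc40a1 values was not tested.

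The profiles closest to that of Slc40a1 over the 4 pools, by the root mean square distance between centred log2 CPM values, were those of Gm44226 (0.046), Map3k6 (0.057) and AC153729.1 (0.068). None of the 3 had FDR under 0.05 by edgeR, and 4 pools are few for such a likeness.

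Regulation was read from Ireb2, which encodes an iron regulatory protein whose activity is set by degradation of the protein. Ireb2 had 761 and 802 counts at 2 months against 736 and 624 at 22 months. Its levels of 52.4 and 53.1 against 55.6 and 51.0 CPM overlapped, and the means were 52.7 ± 0.450 and 53.3 ± 3.24 CPM (SD, n = 2). The log2 fold change of 0.016 had a 95% interval from -0.25 to 0.28 (FDR = 0.964 by edgeR), which holds folds from 0.839 to 1.22. Ireb2 lies on chromosome 9 from 54863789 to 54912530.

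Ratios of counts within a pool do not depend on the scaling between libraries and were taken for 4 pairs of functions. With 2 pools per age the exact two-sided permutation test cannot go below p = 0.333, so no ratio could pass a threshold of 0.05. Ferritin chains together against Tfrc, storage over uptake, gave 1.36 and 1.44 at 2 months against 1.29 and 1.41 at 22 months. Nearly all of these ferritin counts were of Fth1, and the limit given above on the counts of Ftl1 holds here too. The ages overlapped, and the log2 difference of -0.059 was smaller than the pooled SD between replicate pools of 0.078 (exact permutation p = 0.667). Tfrc against Slc11a2 gave 8.94 and 7.50 at 2 months against 9.84 and 10.99 at 22 months. The log2 difference was 0.34 with an SD of 0.15 between replicates, and the ages did not overlap (exact permutation p = 0.333). It was 0.22 without ISC_2mth replicate 2. Slc11a2 against Slc40a1 gave 16.8 and 8.30 at 2 months against 5.48 and 5.17 at 22 months. The log2 difference was -1.15 with an SD of 0.51, without overlap (exact permutation p = 0.333). It was -0.64 without ISC_2mth replicate 1 and -1.66 without ISC_2mth replicate 2. Fth1 against Ftl1 gave 84.3 and 115 at 2 months against 276 and 201 at 22 months, a log2 difference of 1.26 with an SD of 0.32 (exact permutation p = 0.333). The last ratio rests on between 14 and 48 counts of Ftl1 and on its shared sequence.

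**Figure D3:**
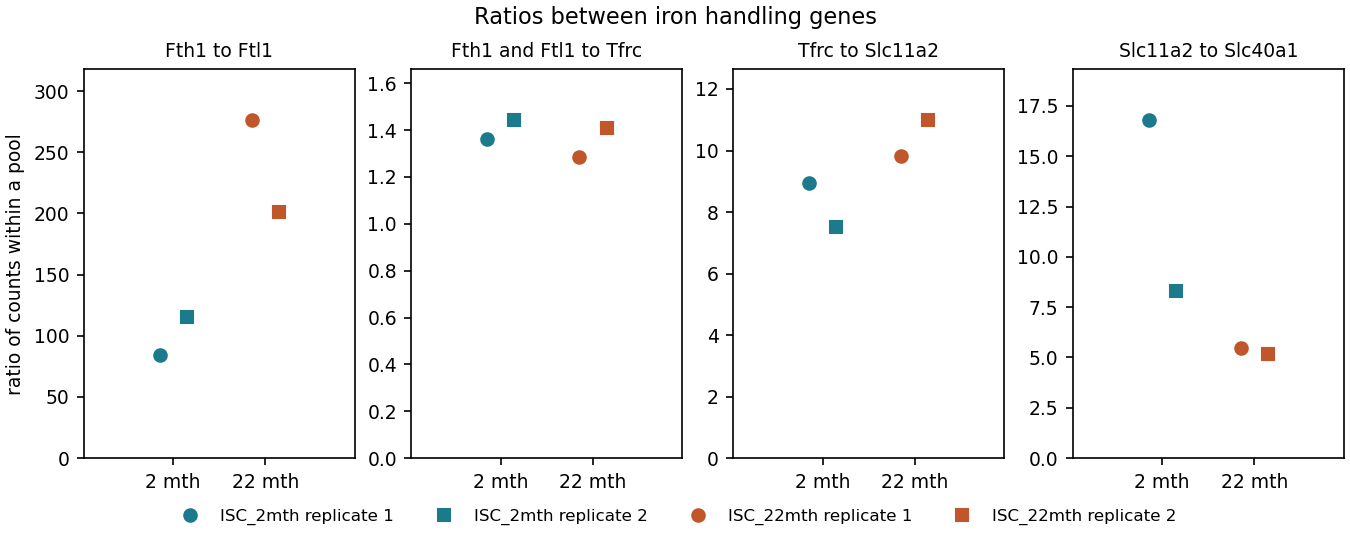
Ratios of counts within each pool for 4 pairs of iron handling functions, with linear axes from 0; colours mark age and symbols the replicate number. Ferritin over Tfrc lies between 1.29 and 1.44 in all 4 pools, Fth1 over Ftl1 between 84.3 and 276, Tfrc over Slc11a2 between 7.50 and 10.99 and Slc11a2 over Slc40a1 between 5.17 and 16.8.

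Other genes of iron metabolism were taken in 6 lists that together held 82 genes tested beside the members. None of them had FDR under 0.05 by edgeR's quasi-likelihood test, with 19 at an unadjusted p under 0.05 (23.2%, against the 16.9% of all genes tested), 13 with higher and 6 with lower values at 22 months. Of these 6, 2 (Slc22a17 and Abcb6) passed the filter on low counts through the young pools alone, which fixed their direction. Leaving out Slc22a17, whose direction was so fixed, the likelihood ratio test called 3 (Fdx1, Glrx3 and Slc39a8, higher), limma voom with sample quality weights 1 (Glrx3, higher) and DESeq2 none, beside the shares of all genes given above for these tools. The median log2 fold change of the 82 genes was 0.077.

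Iron-sulphur cluster assembly, which builds cofactors of the respiratory chain, held 30 genes tested, 17 above and 13 below 0, with a median log2 fold change of 0.063. The unadjusted p was under 0.05 for 7 of them, 6 higher and 1 lower, against 9.26% higher and 7.65% lower among all genes tested. Glrx3, a cytosolic glutaredoxin that carries clusters, had 213 and 170 counts at 2 months against 255 and 277 at 22 months, a log2 fold change of 0.69 with a standard error of 0.18 (FDR = 0.056 by edgeR). Fdx1, a mitochondrial ferredoxin, had 175 and 142 counts against 211 and 237, a log2 fold change of 0.72 with a standard error of 0.20 (FDR = 0.063 by edgeR). Fam96a, a cytosolic assembly factor, had a log2 fold change of 0.45 (FDR = 0.098). In all 3, which were named for their low p, each old pool exceeded each young pool, as in 24% of all genes tested.

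Of 21 cellular and systemic iron genes tested, 14 lay above and 7 below 0, with a median of 0.084. Slc39a8, a metal transporter of the ZIP family, had 248 and 243 counts at 2 months against 323 and 310 at 22 months, a log2 fold change of 0.59 with a standard error of 0.16 (FDR = 0.063 by edgeR). Cisd2, a protein with an iron-sulphur cluster, had a log2 fold change of 0.39 (FDR = 0.16). Slc22a17, a receptor for lipocalin, had 28 counts in both young pools together and 3 in the old pools (FDR = 0.18). These values are a description, given how it passed the filter. The hepcidin genes Hamp and Hamp2 had at most 7 counts in a pool, and Tfr2 had none.

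Haem synthesis held 13 genes tested, 7 above and 6 below 0 (median 0.15). Its 3 lowest p belonged to Ppox, Fech and Alas1, enzymes of the pathway, with log2 fold changes of -0.53, 0.40 and 0.44 and FDR of 0.22, 0.23 and 0.27 by edgeR. Haem transport and breakdown held 7, 3 above and 4 below 0 (median -0.076), with Abcg2 at 0.28, Blvrb at -0.56 and Hmox2 at -0.40, and FDR between 0.37 and 0.54. Hmox1, the inducible haem oxygenase, had 1 count in all pools together. The hypoxia branch, whose factor Epas1 is known to drive Slc11a2, Cybrd1 and Slc40a1 in the intestine, held 8 genes, 5 above and 3 below 0 (median 0.19). With a pool left out the median of this list lay between 0.040 and 0.19. Epas1 itself had 126 and 148 counts at 2 months against 208 and 89 at 22 months, and the old pools enclosed the young pools (log2 fold change 0.32, FDR = 0.58 by edgeR). The levels of Epas1 were 8.68 and 9.79 CPM at 2 months against 15.7 and 7.28 CPM at 22 months. Thus 1 old pool lay above and 1 below both young pools. Its values are given because it acts on 3 members. Hif1a had a log2 fold change of 0.41 (FDR = 0.19), Egln1 of 0.29 (FDR = 0.32) and Hif3a of -0.97 (FDR = 0.45). Of 5 other mRNAs known to carry an IRE, 2 lay above 0, Epas1 among them, and 3 below. Cdc14a had a log2 fold change of -0.41 (FDR = 0.23) and Alas2 of -0.57 (FDR = 0.57). The median of the 5 was -0.13, and 0.12 without ISC_22mth replicate 2.

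**Figure D4:**
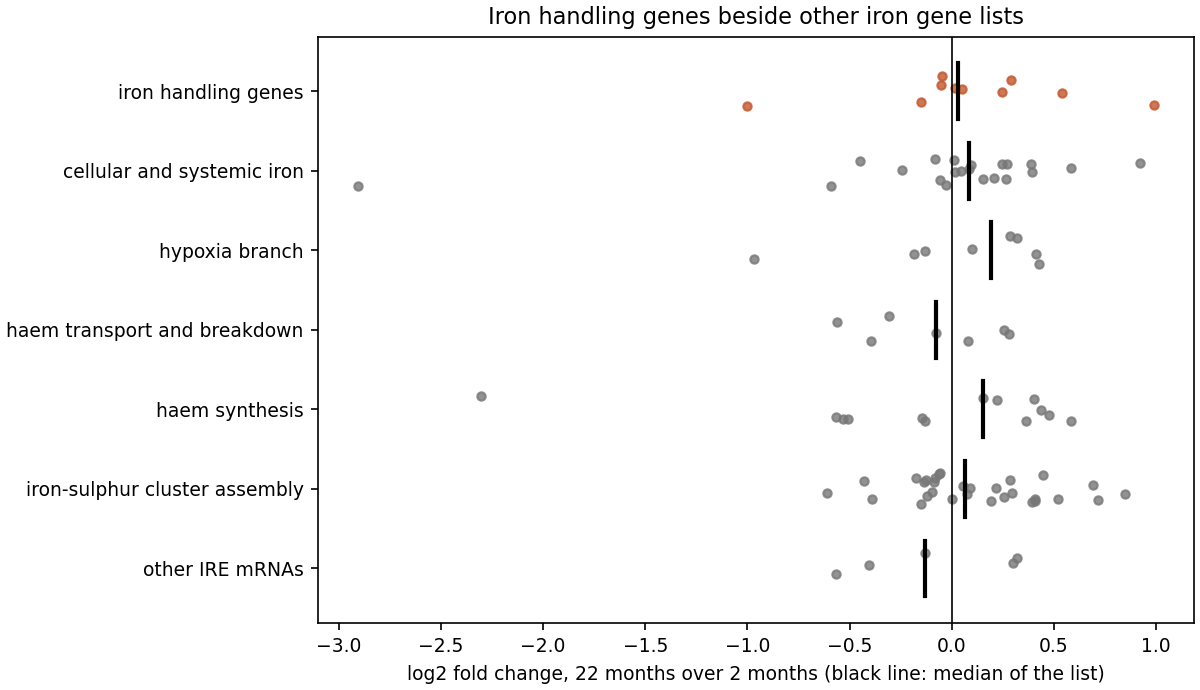
Log2 fold change, 22 months over 2 months, of the iron handling genes and of each gene tested in 6 other iron lists; each point is a gene and black lines mark medians. The medians lie between -0.13 and 0.19, and the 2 points below -2 belong to genes with at most 2 counts in each old pool (Slc22a17 and Abcb6), which passed the filter through the young pools alone.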

How the data were processed

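RNA of ISCs from 4 pools of 5 animals was amplified by SPIA, without molecular identifiers, and sequenced single-end. The authors trimmed the reads with Trimmomatic 0.30, cropped reads of 100 nt to 50, aligned them with STAR 2.4.2a to GRCm38, and deposited raw counts per gene from featureCounts (exons of GENCODE vM15); versions are from the submitters' processing notes. The strand setting and the treatment of reads with several matches are not given in the sources used here.

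A gene was tested where at least 1 pool gave it over 5 reads and over 1 CPM; the 10 members all passed in at least 1 pool of each age. Ages were compared with edgeR 4.0.16 (R 4.3.3; TMM, glmQLFit, glmQLFTest, no covariate, Benjamini-Hochberg, FDR 0.05). Standard errors came from the log2 fold change and F, and 95% intervals from these. No test across 2 pools per age distinguishes animals within a pool. The members and lists were chosen with earlier results of these data known. Alternatives used limma 3.58.1, DESeq2 1.42.0, other scalings and filters, the replicate number as a block, offsets for GC content and length, and each pool left out.

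Positions, lengths and sequences came from GENCODE vM21 (GRCm38), matched by symbol, since vM15 was not used here. Of the genes tested, 96.7% had a length and GC content. Named were the 10 members, the 3 genes of lowest p in each list (1 of these is not reported here), markers of high level or called, copies of Fth1 and Ftl1, and the 3 profiles nearest to the member of lowest p; Epas1, Abcb6, Hamp, Hamp2, Tfr2 and Hmox1 were named after their values were seen. On simulated counts for 13692 genes, 176 of 200 genes given a log2 change of 1 to 2 passed the threshold, as did 10 genes given none. A floor of 3 counts is 0.198 to 0.245 CPM, and counting intervals cover counting error only. Replicate pools differed by more than sampling noise (chi-square per gene 9.42 and 7.11).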

Additional observations from a re-analysis of the deposited data

How the results depend on the processing

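None of the 10 iron handling genes was called in any of the 15 alternatives except scaling by total counts, which called 3 lower (Ftl1, Slc11a2 and Ireb2) and shifted the median of all genes by -0.49. Relative to that shift these 3 were at -1.002, -0.048 and 0.019. The genes called over all genes were 309 by the reported test, 4632 with total counts, 554 without a filter, 611 by the likelihood ratio test, 320 by limma voom, 197 by DESeq2, 197 with GC and length offsets, and between 151 and 710 with a pool left out. Total counts put 96 of the 4632 higher, against 223 of 309 by the reported test. As shares of all genes tested, 33.8% were called with total counts, 4.46% by the likelihood ratio test and 2.34% by limma voom. Without a filter 24764 genes were tested. Without mitochondrially encoded genes 16487 were tested and 377 called. The counts of other iron genes that follow stand beside 82 such genes tested under the reported filter. Of the other iron genes, 27 were called with total counts (all lower), 1 without mitochondrially encoded genes (Glrx3), 3 without a filter (Fdx1, Glrx3 and Slc39a8), 4 by the likelihood ratio test (Slc22a17, which passed the filter through the young pools alone, included), 1 by limma voom, and between 0 and 6 with a pool left out, the 6 without ISC_22mth replicate 1 (Arnt, Fdx1, Glrx3, Hspa9 and Slc39a8 among them) and 2 without ISC_22mth replicate 2 (Cisd2 and Epas1). The replicate numbers share only a number: deviations of same-numbered pools from their age means had a correlation of -0.00015 across genes. With the replicate number as a block, 624 genes, 0 members and 3 other iron genes (Fdx1, Glrx3 and Slc39a8) were called.

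Signs of uncalled values turned as follows. With total counts the log2 fold change was -0.25 for Fth1, -0.21 for Tfrc, -0.43 for Heph and -0.48 for Ireb2, and list medians were -0.41 (cellular iron), -0.30 (hypoxia branch), -0.32 (haem synthesis) and -0.43 (iron-sulphur). With GC and length offsets it was -0.029 for Heph and 0.010 for Steap3, and with the upper quartile -0.025 for Ireb2. Without mitochondrially encoded genes the median of haem transport was 0.0056. With a pool left out, ranges were -0.17 to 0.27 for Heph, -0.61 to 0.52 for Cybrd1, -0.046 to 0.078 for Ireb2, -0.29 to 0.17 for Steap3, -0.17 to 0.013 for haem transport, -0.11 to 0.25 for haem synthesis and -0.43 to 0.12 for the other IRE mRNAs. They kept their sign for Fth1 (0.12 to 0.36), Tfrc (0.19 to 0.39), Slc40a1 (0.56 to 1.63), Ftl1 (-1.38 to -0.69), Ncoa4 (0.070 to 0.91) and Slc11a2 (-0.082 to -0.025); log2 differences of the ratios ran from -0.13 to 0.0074 (ferritin to Tfrc), 0.22 to 0.47 (Tfrc to Slc11a2), -1.66 to -0.64 (Slc11a2 to Slc40a1) and 1.03 to 1.49 (Fth1 to Ftl1); then 1 age has a single pool, assumed to vary like the others. The cause of these differences was not tested. Ftl1, Slc40a1, Cybrd1 and Ncoa4 had 14 to 56 counts per pool and the widest intervals of the members.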
